A study of Mus musculus with 10 samples.

Results

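Platelet-derived growth factors (PDGF) and their receptors were followed in endothelial isolates of mouse liver after a fibrosis-inducing diet. The set comprised the 4 ligand genes Pdgfa, Pdgfb, Pdgfc and Pdgfd and the 2 receptor genes Pdgfra and Pdgfrb. They were taken by gene symbol from the platform annotation. All 6 genes were found, each with 1 probe set, among 24704 named genes. Expression had been measured on 10 Affymetrix arrays with RNA of primary liver sinusoidal endothelial cells (LSEC), which line the hepatic sinusoids. Female C57BL/6N mice, 10 weeks old at the start, were fed for 10 weeks. The CDAA group (5 arrays) received a diet with 31% of calories as fat and 1% cholesterol, and the Std group (5 arrays) received a control diet. The abbreviation CDAA commonly stands for choline-deficient, L-amino acid-defined. The sample labels name no transgene, deletion or other agent in either group. Each array carried cells of 3 pooled mice that had been bound to beads against CD146 after collagenase digestion and a density gradient. A separate duration field of the labels reads 10 days, whereas titles and protocol give 10 weeks, which is used here. The deposited values are log2 signals, and a difference is always CDAA minus Std.

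Markers of cells other than endothelium had signal in the isolates, and the signals of several marker lists differed between the diets. LSEC markers had high signals on all arrays, with a mean of the list between 11.54 and 11.72 on Std arrays and between 10.09 and 11.14 on CDAA arrays. Of 16 such markers, 13 fell and none rose (11 and 0 without CDAA 1 and CDAA 3). With CDAA, 7 of 16 stellate cell and fibroblast markers, 8 of 10 recruited macrophage markers and all 8 measured bile duct markers rose. None of them fell, and the list means are given beside the results they accompany. CDAA 1 and CDAA 3 had the lowest endothelial list means and the highest means of the stellate, macrophage and bile duct lists. Over all genes, 16.6% passed the threshold of an adjusted p of 0.05 in limma, 7.49% rising and 9.13% falling. In bulk RNA, fewer cells of a type and less RNA per cell cannot be told apart.

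PDGFs are secreted dimers that activate receptor tyrosine kinases on mesenchymal cells. The alpha receptor, encoded by Pdgfra, binds the A, B and C chains, and the beta receptor, encoded by Pdgfrb, binds the B and D chains. PDGF-A and PDGF-B are processed inside the producing cell, whereas PDGF-C and PDGF-D leave it as latent factors whose CUB domains are removed by extracellular proteases. In blood vessels, endothelial PDGF-B attracts pericytes that carry the beta receptor. In the liver, hepatic stellate cells are the sinusoidal pericytes, and PDGF is a well-known mitogen for them during fibrosis.

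With the CDAA diet 4 of the 6 genes rose and none fell, beside 7.49% of all genes that rose and 9.13% that fell. The 4 were the ligands Pdgfb and Pdgfc and both receptors. The differences ranged from 0.80 for Pdgfb to 1.69 for Pdgfc on the log2 scale, that is from 1.74-fold to 3.24-fold. Pdgfa and Pdgfd were higher on average by 0.37 and 0.15 and did not pass. The median difference of the 6 genes was 0.91, against -0.02 over all genes. For 5 of the 6 genes, Pdgfa being the exception, every CDAA array lay above every Std array, a pattern that 6.16% of all genes showed in this direction and 13.9% in either. Signals of all 6 genes exceeded the 95th percentile of 1088 olfactory receptor genes on each array, a level of 3.31 to 3.63 taken as a reference for genes with no known expression in liver cells. The smallest margin over it was 0.79, for Pdgfra on a Std array.

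**Figure D1:**
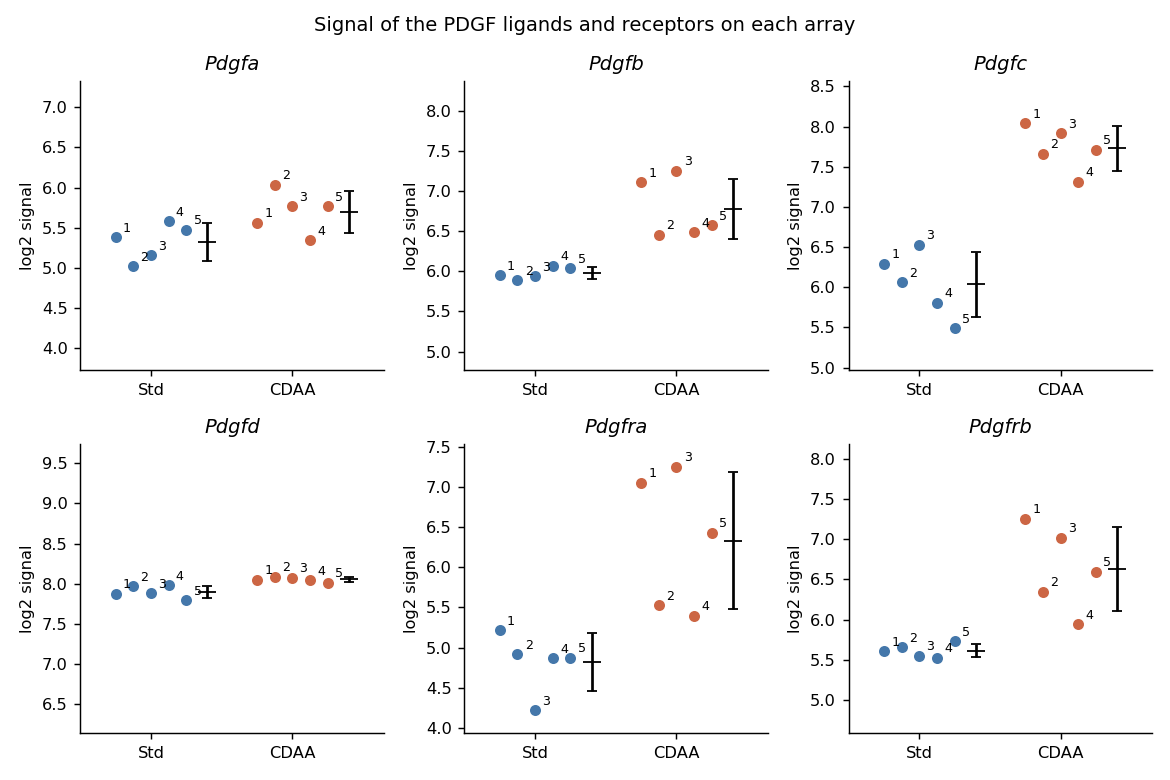
Log2 signal (y axis) of each PDGF gene on the 5 Std and 5 CDAA arrays; points are arrays with their replicate number, the bar beside them is the mean with SD, and all panels span the same height. The groups overlap only for Pdgfa, and CDAA 1 and CDAA 3 are the highest CDAA arrays for Pdgfb, Pdgfc, Pdgfra and Pdgfrb.

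Among the ligands, Pdgfb encodes the chain through which endothelium recruits pericytes. Its signal (probe set 18591_at) was 7.11, 6.46, 7.25, 6.48 and 6.57 on CDAA 1 to CDAA 5 and 5.95, 5.89, 5.94, 6.07 and 6.04 on Std 1 to Std 5. The Std arrays were tightly grouped, and the CDAA arrays fell into a high pair, CDAA 1 and CDAA 3, and 3 lower arrays that still exceeded all Std values. Means were 6.78 ± 0.38 and 5.98 ± 0.08 (SD, n = 5). Pdgfb rose by 0.80 ± 0.16 (SE; 95% interval 0.45 to 1.14, limma adjusted p = 0.00487). Without CDAA 1 and CDAA 3 the rise was 0.53 ± 0.09 (limma adjusted p = 0.00572). Endothelial markers fell in the same isolates: 8 of 12 pan-endothelial genes fell and none rose (6 and 0 without CDAA 1 and CDAA 3), with list means of 11.09 to 11.23 on Std and 9.85 to 10.90 on CDAA arrays. Pdgfb was thus higher in isolates whose general endothelial signal was lower. Platelets are another known source of the B chain. Of 7 measured platelet and megakaryocyte markers, 0 passed in limma (2 had an unadjusted p below 0.05, and 0 passed without CDAA 1 and CDAA 3). Their mean was 4.41 to 4.69 on CDAA and 4.63 to 5.11 on Std arrays, and 1 of the 7 was higher on average with CDAA. These means are not far above the olfactory receptor level of 3.31 to 3.63, so a change could be missed. The part of platelets, or of any other cells, in the rise of Pdgfb was not tested.

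Pdgfc encodes a ligand of the alpha receptor and had the largest difference of the 6 genes. Its signal (54635_at) was 8.04, 7.66, 7.92, 7.31 and 7.71 on CDAA 1 to CDAA 5 and 6.29, 6.06, 6.53, 5.81 and 5.49 on Std 1 to Std 5. The lowest CDAA array, CDAA 4, was above the highest Std array, Std 3. Means were 7.73 ± 0.28 and 6.04 ± 0.41 (SD, n = 5), and Pdgfc rose by 1.69 ± 0.19 (SE; 95% interval 1.27 to 2.11, limma adjusted p = 0.000176). The rise was 1.53 ± 0.22 without CDAA 1 and CDAA 3 (limma adjusted p = 0.00186). All 8 measured bile duct markers rose in these isolates, with list means of 7.41 to 8.29 on CDAA and 4.40 to 5.48 on Std arrays. Their part in the rise of Pdgfc was not tested.

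Pdgfa encodes the A chain, which signals through the alpha receptor. Its signal (18590_at) was 5.57, 6.04, 5.77, 5.34 and 5.77 on CDAA 1 to CDAA 5 and 5.38, 5.02, 5.16, 5.59 and 5.48 on Std 1 to Std 5. The groups overlapped, since CDAA 1 and CDAA 4 lay below Std 4. The difference of 0.37 ± 0.15 (SE; 95% interval 0.06 to 0.69) missed the threshold (limma adjusted p = 0.108). Without CDAA 4 it was 0.46 and passed (limma adjusted p = 0.0413). CDAA 2, not CDAA 1 or CDAA 3, was the highest array for this gene.

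Pdgfd encodes a ligand of the beta receptor and varied little among arrays. Its signal (71785_at) lay between 8.01 and 8.09 on CDAA arrays, with a median of 8.05, and between 7.80 and 7.98 on Std arrays, with a median of 7.88. The groups did not overlap, but the difference was 0.15 ± 0.08 (SE; 95% interval -0.02 to 0.32) and did not pass (limma adjusted p = 0.234).

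The paralogous ligands were compared within each array, where an unequal change of both genes shows as a shift of their log2 difference. Pdgfc minus Pdgfd was -0.32 ± 0.28 on CDAA and -1.87 ± 0.40 on Std arrays (SD, n = 5), a shift of 1.54 with no overlap of the groups (two-sided exact permutation test, p = 0.00794, the smallest that 252 arrangements allow, adjusted p = 0.0238 over 3 pairs). Pdgfc therefore changed more than Pdgfd. Pdgfb minus Pdgfa shifted by 0.42, and the ranges overlapped (exact permutation p = 0.119, adjusted p = 0.119). Without CDAA 2, the array with the highest Pdgfa signal, that shift was 0.59 and passed (exact permutation, adjusted p = 0.0238). Without CDAA 1 and CDAA 3 it was 0.13 (exact permutation, adjusted p = 0.554).

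Both receptor genes rose, with wide differences among the CDAA pools. Pdgfra (18595_at), the alpha receptor of fibroblasts and other mesenchymal cells, had signals of 7.05, 5.53, 7.25, 5.40 and 6.43 on CDAA 1 to CDAA 5 and of 5.21, 4.91, 4.22, 4.87 and 4.87 on Std 1 to Std 5. CDAA 2 and CDAA 4 were only just above the highest Std array, while CDAA 1 and CDAA 3 were far above it. Means were 6.33 ± 0.85 and 4.82 ± 0.36 (SD, n = 5), a rise of 1.51 ± 0.34 (SE; 95% interval 0.77 to 2.26, limma adjusted p = 0.0101). Without CDAA 1 and CDAA 3 it was 0.97 ± 0.26 (limma adjusted p = 0.0408).

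Pdgfrb (18596_at), the beta receptor that marks pericytes and stellate cells, had signals of 7.25, 6.35, 7.02, 5.94 and 6.59 on CDAA 1 to CDAA 5 and of 5.61, 5.66, 5.55, 5.52 and 5.73 on Std 1 to Std 5. The Std arrays spanned a narrow range, all CDAA arrays lay above it, and CDAA 4 was closest to it. Means were 6.63 ± 0.52 and 5.61 ± 0.08 (SD, n = 5). Without CDAA 1 and CDAA 3, the difference of 1.02 ± 0.21 (SE, limma adjusted p = 0.00557) became 0.68 ± 0.14 (limma adjusted p = 0.0127). Pdgfrb minus Pdgfra was 0.30 ± 0.40 on CDAA and 0.79 ± 0.34 on Std arrays (SD, n = 5). The shift of -0.50 did not pass (two-sided exact permutation p = 0.0635, adjusted p = 0.0952 over 3 pairs), so a larger change of Pdgfra than of Pdgfrb was not shown. It passed without CDAA 2 (-0.63, exact permutation, adjusted p = 0.0317) and was -0.29 without CDAA 1 and CDAA 3 (exact permutation, adjusted p = 0.455).

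Part of the markers of mesenchymal cells rose in the same isolates as the receptor genes. Of 16 stellate cell and fibroblast markers, a list without the PDGF receptors, 7 rose and none fell (8 and 0 without CDAA 1 and CDAA 3). The list mean was 6.55 to 7.70 on CDAA and 5.82 to 6.27 on Std arrays. CDAA 3, then CDAA 1, had the highest means, as for Pdgfra. That order was not particular to this list, since the macrophage, Kupffer cell and hepatocyte lists had it too. In the bile duct list CDAA 1 was highest, then CDAA 3. The collagen genes Col1a1 and Col3a1 rose by 3.43 and 2.59, and the proteoglycan gene Lum by 2.50. Rgs5, a regulator of G protein signalling in pericytes, and Cygb, a globin of stellate cells, rose by 2.45 and 1.62. Among the 9 genes that did not pass, Lrat, which esterifies retinol for storage, differed by 0.53 ± 0.41, Reln by -0.09 ± 0.38 and Des by 0.22 ± 0.15. Log2 signals have no true zero, so no marker can be said to be at 0. Of 11 smooth muscle and contractile genes, which share Des with that list, 2 rose, Mylk by 0.90 and Tagln by 0.80, and the list mean was 5.53 to 5.81 on CDAA and 5.19 to 5.70 on Std arrays. Among CDAA arrays that mean was highest on CDAA 2 and lowest on CDAA 3, unlike the receptor genes. Of 10 monocyte and recruited macrophage markers 8 rose, with list means of 8.24 to 9.72 on CDAA and 5.25 to 6.58 on Std arrays. The part of these cells in the rises of Pdgfb, Pdgfra and Pdgfrb was not tested.

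**Figure D2:**
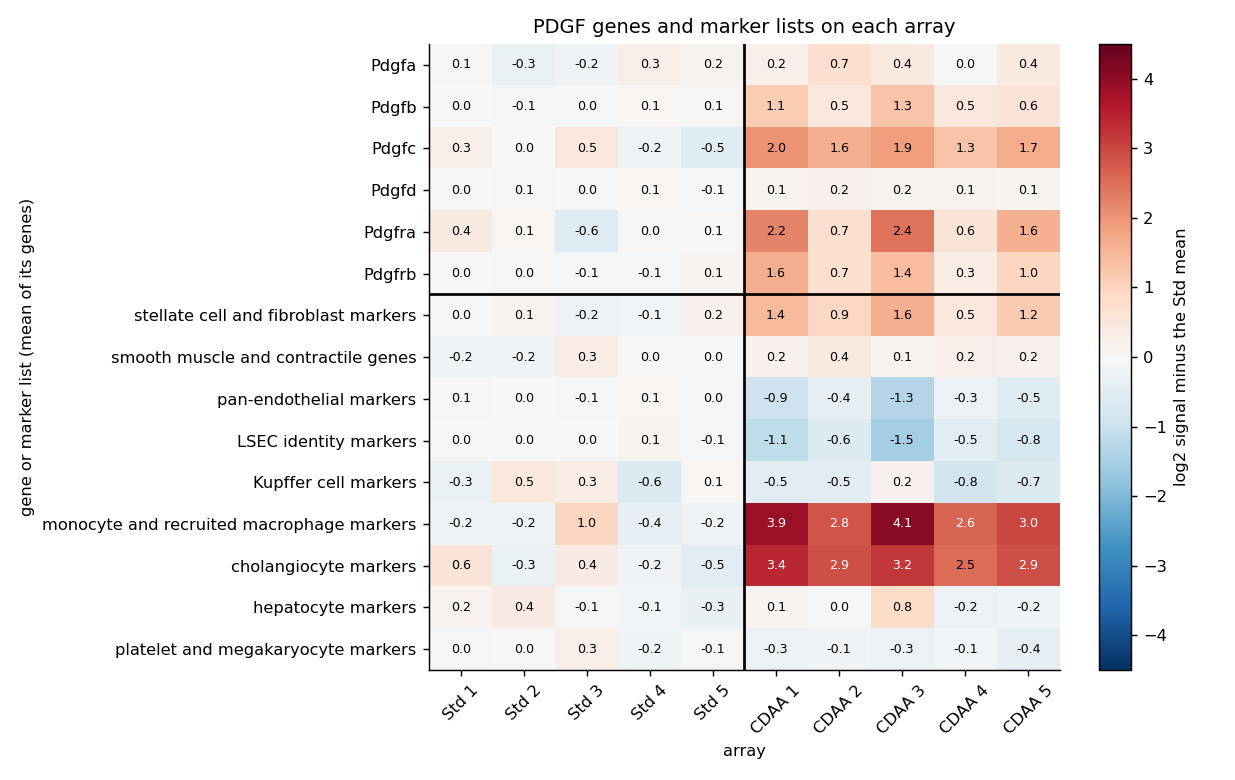
Log2 signal minus the Std mean (colour and printed value) for each of the 6 PDGF genes and for the mean of 9 marker lists (rows) on each array (columns). Among CDAA arrays, Pdgfra and Pdgfrb are highest on CDAA 1 and CDAA 3 and lowest on CDAA 4. So are the stellate cell and fibroblast, Kupffer cell, macrophage, cholangiocyte and hepatocyte lists. The endothelial lists are lowest on CDAA 3 and CDAA 1.

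When the mean of a marker list was entered as a covariate, none of the 6 genes passed in limma (Pdgfc alone had an unadjusted p below 0.05 with the endothelial or the stellate mean, and 0 genes with the macrophage mean), and the estimates parted by gene. With the stellate cell and fibroblast mean, Pdgfra went from 1.51 to -0.44 ± 0.35 and Pdgfrb from 1.02 to -0.12 ± 0.23 (SE, limma adjusted p = 0.921 and 0.976). Pdgfb went to 0.10 ± 0.25. Pdgfc was at 1.36 ± 0.40 (limma adjusted p = 0.378), though in that fit only 17 of all genes passed. With the pan-endothelial mean, Pdgfc was at 1.31 ± 0.29 (limma adjusted p = 0.0516), and Pdgfb, Pdgfra and Pdgfrb were at 0.23, 0.31 and 0.29. With the recruited macrophage mean, Pdgfc was at 0.29 ± 0.46 and Pdgfb at -0.24 ± 0.40. Each of these means moved with the diet, so diet and makeup of the isolate cannot be told apart by these fits.

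**Figure D3:**
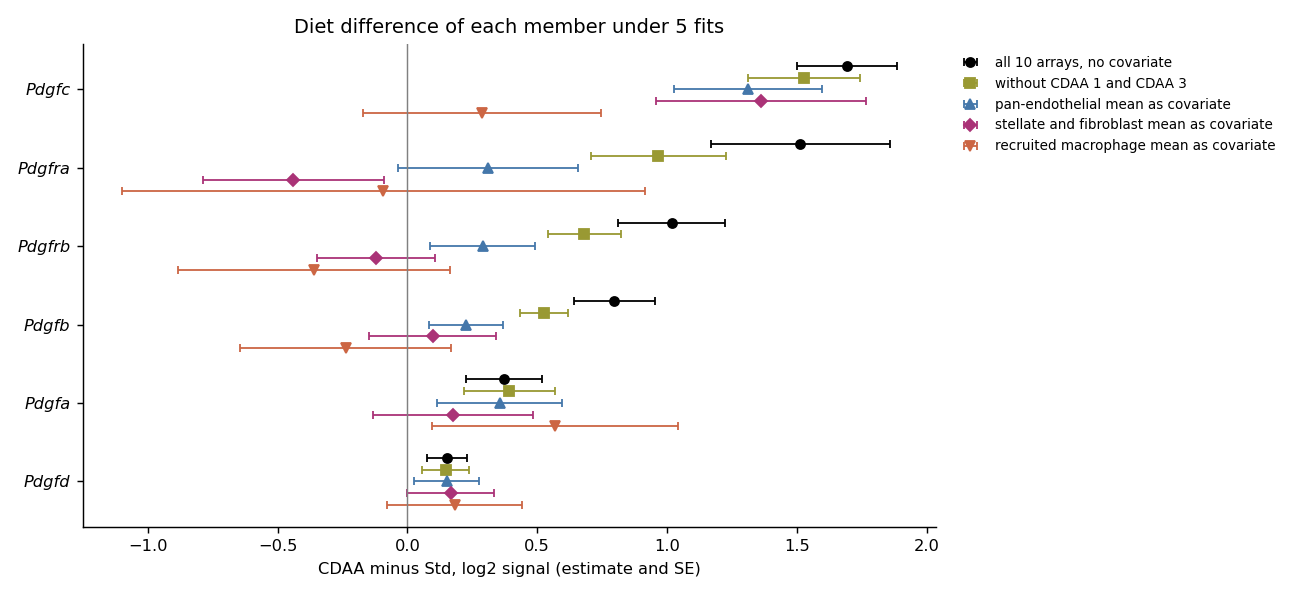
CDAA minus Std difference in log2 signal with its SE (x axis) for each PDGF gene (y axis), from all arrays, without CDAA 1 and CDAA 3, and with each of 3 marker list means as a covariate. None of the 6 genes passed in limma with a covariate. The estimate of Pdgfc is 1.31 with the pan-endothelial, 1.36 with the stellate and 0.29 with the macrophage mean. The estimates of Pdgfra and Pdgfrb lie below 0 with the stellate and with the macrophage mean.

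The promoters of Pdgfc and Pdgfra are shown because these genes had the largest rises. RefSeq promoter entries (build GRCm38.p6) were found for Pdgfa, Pdgfc, Pdgfd and Pdgfra and not for Pdgfb. Pdgfrb was not looked up. The 250 bases before the annotated start are printed 5′ to 3′ on the gene's strand, for Pdgfc chr3:81036166-81036415 and for Pdgfra chr5:75152001-75152250, both on the plus strand. Capitals would mark a match to one of 5 motifs searched on both strands.
Pdgfc: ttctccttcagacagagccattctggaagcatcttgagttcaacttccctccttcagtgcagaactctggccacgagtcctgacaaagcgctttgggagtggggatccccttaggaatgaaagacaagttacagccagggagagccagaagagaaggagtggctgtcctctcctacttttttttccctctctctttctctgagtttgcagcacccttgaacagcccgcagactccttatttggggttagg
Pdgfra: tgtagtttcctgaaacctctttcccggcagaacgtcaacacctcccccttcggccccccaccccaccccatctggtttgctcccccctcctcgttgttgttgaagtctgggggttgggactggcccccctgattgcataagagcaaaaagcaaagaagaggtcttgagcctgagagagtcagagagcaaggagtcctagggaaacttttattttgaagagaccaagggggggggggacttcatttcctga
Neither window held the E-box of MYC (CACGTG), the GC box of SP1 (GGGCGG), the AP-1 site (TGANTCA), the EGR1 site (GCGNGGGCG, which can overlap a GC box) or TATAAA, so all letters are in lower case. Among 32851 promoter windows of this length, 6.02% held the E-box, 32.7% the GC box, 6.75% the AP-1 site, 4.7% the EGR1 site and 12.4% TATAAA. The windows had a GC content of 50.8% for Pdgfc and 54.4% for Pdgfra, against a median of 52.4%. Of the genes that did not pass, Pdgfa had GC boxes in both of its 2 entries, and Pdgfd had TATAAA 160 bases before the start. No match says only that these letters are not in the window.

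Genes that release, present or bind PDGFs changed in both directions. Of 11 such genes, 4 rose and 2 fell (3 and 2 without CDAA 1 and CDAA 3), with a median difference of 0.12. Beside this and the list counts below, 7.49% of all genes rose and 9.13% fell. Plat, the tissue plasminogen activator, which cleaves latent PDGF-C, rose by 0.82 ± 0.14 from 5.59 to 6.41 (SE, limma adjusted p = 0.00182). Both genes of proteases reported to activate PDGF-D rose: St14, the epithelial protease matriptase, by 2.94 ± 0.24 and Plau, urokinase, by 0.64 ± 0.13 (limma adjusted p = 2.98e-05 and 0.00647). Lrp1, an endocytic receptor that associates with the beta receptor, rose by 1.13 ± 0.33 (limma adjusted p = 0.0362) but was at 0.52 and did not pass without CDAA 1 and CDAA 3. Nrp1, a co-receptor abundant in endothelium, fell by 1.09 ± 0.17 (limma adjusted p = 0.0011). In the same isolates 8 of 12 pan-endothelial genes fell, and whether the fall of Nrp1 differed from theirs was not tested. Furin, which processes the A and B chains, differed by -0.16 ± 0.09, and Sparc, a matrix protein that binds PDGF, by 0.12 ± 0.08.

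Downstream of the receptors, adaptors and kinases showed no common direction. Of 19 signal transducers, 4 rose and 3 fell (the same counts without CDAA 1 and CDAA 3), and the median difference was -0.04. The adaptor Grb7 rose by 1.08 ± 0.16, the kinase Src by 1.05 ± 0.19 and the adaptor Nck2 by 0.92 ± 0.11 (SE, limma adjusted p = 0.000818, 0.00262 and 0.000335). The phosphatidylinositol kinase subunits Pik3ca and Pik3r1 differed by 0.04 ± 0.09 and -0.16 ± 0.09. Of 13 negative regulators, 4 fell and none rose (3 and 0 without CDAA 1 and CDAA 3, where Dusp6 did not pass), with a median of -0.19. Spry4 and Spry1, which restrain signalling from receptor tyrosine kinases to ERK, fell by 1.34 ± 0.18 and 0.62 ± 0.12, and Socs1, an inhibitor of cytokine signalling, fell by 0.94 ± 0.18.

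Of 17 genes known to respond to PDGF or serum, 4 rose and none fell (3 and 0 without CDAA 1 and CDAA 3, where Has2 did not pass). The median difference was 0.45, and -0.04 without those arrays. Myc rose by 1.92 ± 0.13, the chemokine gene Ccl2 by 1.66 ± 0.29 and the nuclear receptor gene Nr4a1 by 1.30 ± 0.28 (SE, limma adjusted p = 1.12e-05, 0.0024 and 0.00856). The immediate early genes Fos and Egr1 varied widely among arrays, at 0.67 ± 0.65 and 0.45 ± 0.58, and did not pass. Many of these genes respond to other stimuli as well, including cell isolation.

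**Figure D4:**
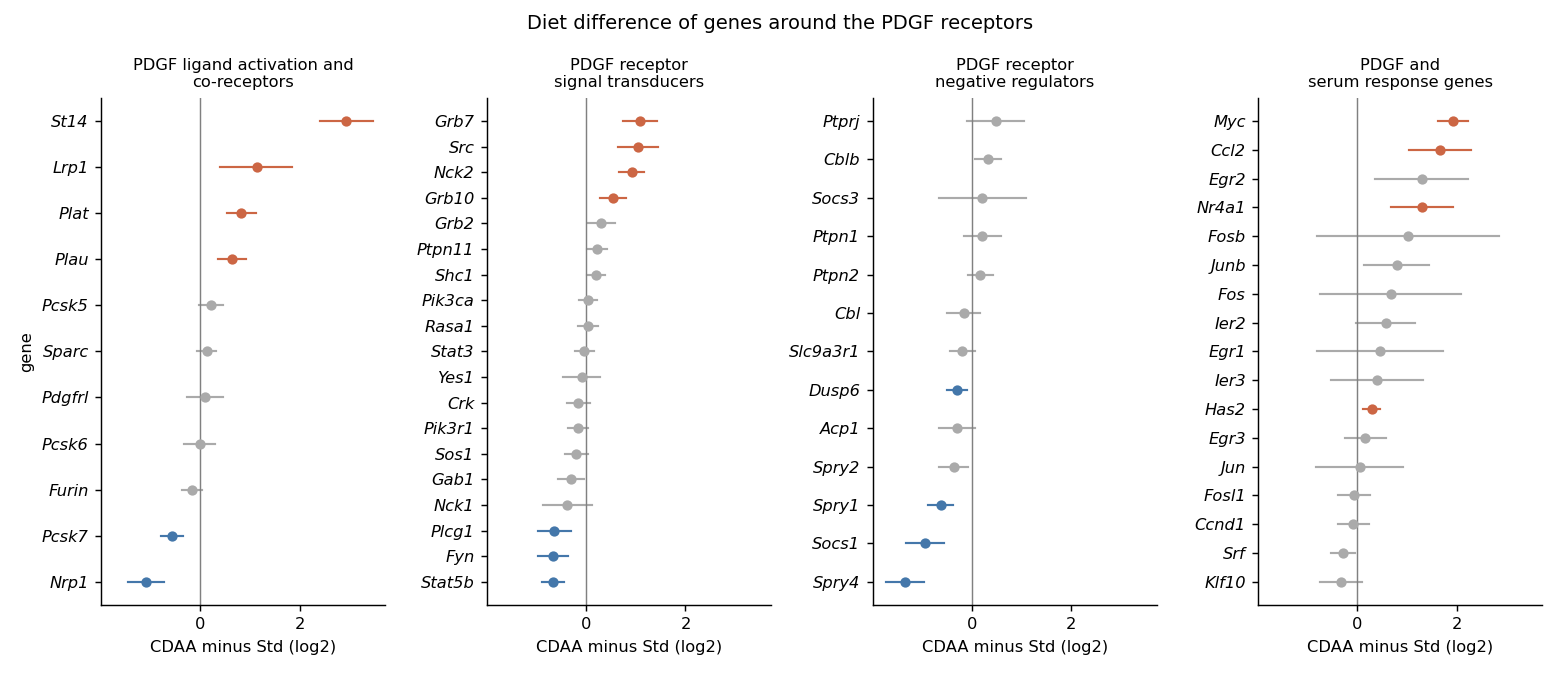
CDAA minus Std difference in log2 signal with its 95% interval (x axis) for the genes of 4 lists around the PDGF receptors (y axis); orange genes rose, blue genes fell and grey genes did not pass. Among negative regulators the called genes all lie below 0, and in the other lists but the response genes called genes lie on both sides.

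Within the diets, the genes whose array-to-array pattern was most like that of each PDGF gene were sought among 19977 other genes, by the Pearson correlation of deviations from the diet means over 10 arrays. These correlations are descriptions, the highest of very many, and share the arrays' makeup. For Pdgfb they were Phka2, Dap and S100a4 (0.98, 0.979 and 0.979). Without CDAA 1 and CDAA 3 they were 0.606, 0.689 and 0.781 over 8 arrays, so the likeness rested in part on those arrays. S100a4, a calcium-binding protein of macrophages and fibroblasts, rose by 1.64. For Pdgfc they were Gucy2g, Ces1d and Ambp (0.953, 0.942 and 0.942; 0.966, 0.928 and 0.937 without CDAA 1 and CDAA 3). Ces1d, a carboxylesterase, and Ambp, a plasma protein precursor made by hepatocytes, rose by 2.16 and 2.72. The hepatocyte list did not share a direction, with 2 of 9 genes risen and 2 fallen (2 and 3 without CDAA 1 and CDAA 3). Its means were 6.75 to 7.85 on CDAA and 6.69 to 7.37 on Std arrays. The risen genes were Ttr, by 1.54, and Alb, by 1.28 (limma adjusted p = 0.000791 and 0.00138). Of the 2 fallen genes, Ass1 differed by -1.18. The part of hepatocytes in the rise of Pdgfc was not tested.

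For Pdgfra the most alike were Prkag2, Gas1 and Spata22 (0.98, 0.979 and 0.975), of which none passed between diets. For Pdgfrb they were Gltp, Ddhd1 and Egfr (0.963, 0.963 and 0.962), and Egfr, the epidermal growth factor receptor, rose by 0.95. Both sets stayed at 0.855 or above without CDAA 1 and CDAA 3. For Pdgfa they were Ankrd34a, Vmn1r185 and Telo2 (0.893, 0.891 and 0.89), and for Pdgfd Zfp810, Clca2 and Myl2 (0.967, 0.934 and 0.932), none of which passed between diets.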

How the data were processed

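The authors made the deposited log2 values with RMA, per the submitters' processing notes; no version is given in the sources used here. RMA removes background, gives every array the same distribution of values and combines the probes of a probe set. The 10 arrays, each from 3 pooled mice, shared at most 0.244% identical values. CDAA 1 held 24921 distinct values and the others up to 10080. Of 25428 probe sets, 24705 had 1 gene symbol, 0 several and 723 none. For the 1 gene with several probe sets the brightest was kept.

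Diets were compared over all 24704 genes with lmFit and eBayes of limma 3.58.1 (R 4.3.3), with two-sided p-values adjusted by Benjamini-Hochberg and called below 0.05. Within-array differences of 3 gene pairs used exact permutation tests. The labels call the pools biological replicates, and p-values cover the spread between pools only. On simulated data, limma recovered 19.5% of changes of 0.5, 82% of changes of 1 and 98.5% of changes of 2 (200 of 24704 genes changed). The simulated noise was independent between genes, and in the data 4106 genes passed. These shares therefore need not hold for the data.

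The 6 genes and the 15 gene lists were chosen with earlier results of these data known. The rule was to name the 6 genes, per list up to 3 called genes of largest change (or, with none called, the smallest p), and the 3 most alike genes. Predicted, microRNA and small nucleolar RNA genes were left out of the latter. The rule was not followed for every list. No gene is named from the LSEC, macrophage, bile duct and platelet lists, and the pan-endothelial and Kupffer cell lists follow it only in part. Lrat, Reln, Des, Plat, Plau, Furin, Sparc, Pik3ca, Pik3r1, Dusp6, Has2, Fos, Egr1, Csf1r, C1qa, Rgs5 and Cygb were chosen after their values were seen. Alternatives were a replicate block, repeated quantile normalization, median centring, filters on dim genes, array weights, robust variance with an intensity trend, 3 covariates and left-out arrays. List counts without CDAA 1 and CDAA 3 were added after seeing the data. For arrays, their number limits the precision.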

Additional observations from a re-analysis of the deposited data

How the results depend on the processing

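The rises of Pdgfb, Pdgfc, Pdgfra and Pdgfrb kept direction and call in all 10 fits that left out 1 array, without CDAA 1 and CDAA 3, and under repeated quantile normalization, median centring, both filters on dim genes, the intensity trend and array weights. The 3 covariates ended each call. With the pan-endothelial mean the estimates were 0.23 for Pdgfb, 1.31 for Pdgfc, 0.31 for Pdgfra and 0.29 for Pdgfrb; with the stellate and fibroblast mean 0.097, 1.36, -0.44 and -0.12; with the recruited macrophage mean -0.24, 0.29, -0.093 and -0.36. All genes past the threshold numbered 4106, and 326, 17 and 87 with these covariates in that order; 2612 passed without CDAA 1 and CDAA 3. Leaving out 1 array gave 0.29 to 0.46 for Pdgfa, which passed without CDAA 4. It gave 0.31 to 0.59 for the shift of Pdgfb minus Pdgfa and -0.63 to -0.36 for Pdgfrb minus Pdgfra, both of which passed without CDAA 2. Without CDAA 1 and CDAA 3 these shifts were 0.13 and -0.29, outside those ranges (exact permutation, adjusted p = 0.554 and 0.455). Pdgfc minus Pdgfd was then 1.38 with p = 0.0179 (exact permutation, adjusted p = 0.0536). That p is the smallest the remaining arrays allow. With the other pairs at their values, this shift could not pass at any size, so the lost call says nothing about those arrays. The replicate numbers pair no samples by the labels: same-numbered arrays deviated together with correlations of 0.0164 to 0.249, and 3 of 5 CDAA arrays correlated best with their own number. With the replicate number as a block 4178 genes passed, Pdgfc was at 1.69 and no call of the 6 genes changed. The within-array shifts were not refitted with the block, the filters or the covariates. Background correction could not be varied from log2 values, and 5 arrays a group limit what small differences can be seen.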

Other observations

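The VEGF branch of the same growth factor family, which acts on endothelium, changed in both directions. Of its 8 ligand and receptor genes 1 rose and 4 fell, with a median difference of -0.39 (1 and 4 without CDAA 1 and CDAA 3, median -0.16). Vegfa, the main angiogenic ligand, rose by 1.36 ± 0.20 from 6.24 to 7.60 (SE, limma adjusted p = 0.000908), while its receptors Flt1 and Kdr fell by 1.34 ± 0.21 and 0.89 ± 0.17 (limma adjusted p = 0.00129 and 0.00404). Flt1 and Kdr are also in the pan-endothelial list, in which 8 of 12 genes fell. The difference between both branches was not tested.

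The other receptor tyrosine kinases of the PDGF receptor class and their ligands included 0 genes that rose and 4 of 7 that fell (0 and 3 without CDAA 1 and CDAA 3), with a median of -0.48. Csf1, the macrophage growth factor, fell by 0.99 ± 0.16, and Kit, a receptor that pericentral sinusoidal endothelium carries, by 0.96 ± 0.21 (SE, limma adjusted p = 0.00139 and 0.00776). Its ligand gene Kitl fell by 0.73 ± 0.18. Of the LSEC markers, 13 of 16 fell in the same isolates, with a list median of -0.84. Whether the fall of Kit differed from theirs was not tested. Csf1r, the receptor of Csf1 on macrophages, differed by 0.36 ± 0.28 and did not pass. In the Kupffer cell list, which shares Csf1r, 4 of 10 genes fell and none rose, led by Timd4, which fell by 3.73 ± 0.24. The other 6 genes had higher means with CDAA without passing, among them C1qa by 0.79, and the list median was 0.27 (-0.05 without CDAA 1 and CDAA 3).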
